A study of Homo sapiens with 6 samples.

Results

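The 10 genes described here are EGR1, EGR2, EGR3, IER2, IER3, IER5, ARC, BTG1, BTG2 and ZFP36, immediate-early genes that do not encode AP-1 factors. They were picked by name from the 26025 genes of the deposited table, and all 10 were listed there. The naming rule uses no measured value, but the set was put together with earlier results of these data known. RNA was sequenced from NCI-H1299, an established line of human NSCLC (non-small cell lung cancer) known to lack p53 protein, in 3 Ctrl and 3 NE libraries. The cells were grown with 10% FBS. All cultures, Ctrl and NE, were then starved in DMEM for 8 to 12 h and kept for 48 h in RPMI-1640 with 2% FBS. The NE cultures received 10 µM norepinephrine (NE) in that last medium. The vehicle of the Ctrl cultures is named as DMSO in the titles of the samples and as PBS in their treatment protocol. The comparison asks which of these genes differed after 48 h of NE, and the labels do not say whether the 3 replicates of a group were separate cultures, so that p-values measure the spread between these libraries only. Each group is 1 cell line, and in bulk RNA a lower level in every cell and fewer expressing cells cannot be told apart.

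Immediate-early genes are transcribed within minutes of a stimulus, without new protein synthesis, through factors that are already present such as SRF with its ETS partners and CREB. Norepinephrine acts on alpha- and beta-adrenergic receptors, and the beta receptors raise cAMP and activate PKA, and PKA phosphorylates CREB. The induction is usually short, because the transcripts are unstable and many of the encoded proteins act as feedback regulators. EGR1, EGR2 and EGR3 encode zinc finger transcription factors that bind GC-rich DNA, and ARC encodes a cytoskeletal protein best known at synapses. IER2, IER3 and IER5 encode small proteins without a shared enzymatic activity. IER3 is known as a regulator of cell survival and ERK signaling, and IER5 as a partner of the heat shock factor HSF1. BTG1 and BTG2 are antiproliferative adaptors that bind the CCR4-NOT deadenylase, and ZFP36 (tristetraprolin) binds AU-rich elements in mRNA and recruits the same deadenylase.

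The sequences before the start sites are shown for IER2 and IER5, the 2 genes that changed, and for EGR1 and EGR2, because they hold the elements through which SRF and CREB are known to act. The RefSeq table (GRCh38.p14) held 7 of the 10 genes, EGR3, IER3 and ARC being the others, and the 250 bases before the start were searched on both strands. The motifs were the CArG box of SRF, the full cAMP response element TGACGTCA, its half-site TGACG, which the full element contains, the EGR sites GCGTGGGCG and GCGGGGGCG, and the ETS site CCGGAAGT. Of 35116 promoters of the same length, 1.16% held a CArG box, 1.65% a full cAMP response element, 21.2% a half-site, 5.37% an EGR site and 3.42% the ETS site. These promoters were not limited to canonical starts, and a gene can have several. The windows on hg38 were chr5:138465229-138465478 on the plus strand for EGR1, chr10:62816367-62816616 on the minus strand for EGR2, chr19:13150161-13150410 on the plus strand for IER2 and chr1:181088450-181088699 on the plus strand for IER5. Capitals mark the matches.
EGR1: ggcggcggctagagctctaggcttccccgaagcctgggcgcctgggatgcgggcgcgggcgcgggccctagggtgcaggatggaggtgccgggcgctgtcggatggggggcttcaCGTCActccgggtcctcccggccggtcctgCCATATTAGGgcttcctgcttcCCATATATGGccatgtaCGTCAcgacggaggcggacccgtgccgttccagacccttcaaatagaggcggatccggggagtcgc
EGR2: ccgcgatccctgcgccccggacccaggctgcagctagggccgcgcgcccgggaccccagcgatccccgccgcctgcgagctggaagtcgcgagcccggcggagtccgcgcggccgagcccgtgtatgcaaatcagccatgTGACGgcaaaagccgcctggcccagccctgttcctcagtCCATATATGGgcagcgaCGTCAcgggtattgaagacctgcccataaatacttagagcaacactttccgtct
IER2: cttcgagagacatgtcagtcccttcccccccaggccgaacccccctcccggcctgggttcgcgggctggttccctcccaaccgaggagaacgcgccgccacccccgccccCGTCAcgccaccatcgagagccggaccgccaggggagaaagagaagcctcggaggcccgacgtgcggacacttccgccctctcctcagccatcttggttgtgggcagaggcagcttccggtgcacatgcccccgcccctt
IER5: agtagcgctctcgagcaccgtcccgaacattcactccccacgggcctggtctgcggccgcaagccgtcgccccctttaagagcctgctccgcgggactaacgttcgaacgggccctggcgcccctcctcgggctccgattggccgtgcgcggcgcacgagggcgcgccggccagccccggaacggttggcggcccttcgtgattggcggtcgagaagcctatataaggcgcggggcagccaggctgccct
EGR1 held 2 CArG boxes, at -105 to -96 and -83 to -74 from the start, and 2 half-sites, at -135 to -131 and -66 to -62. EGR2, for which RefSeq gives 3 start sites, held 1 CArG box at -71 to -62 and 2 half-sites in the window at its canonical start. The windows at its other start sites held none of the motifs. IER2 held 1 half-site, at -140 to -136, and IER5 held none of the motifs. In the windows of the other 3 genes, BTG1 held 2 half-sites, BTG2 held 1 half-site and 1 EGR site, and ZFP36 held none. No window at a canonical start held the full element or the ETS site, so that CArG boxes were found in 2 of the 7 genes and half-sites in 5 of the 7. A match is a description of the letters and not evidence of binding.

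The genes are short. The canonical transcripts had 1 exon in IER5, 3 exons in ARC and 2 in each of the others, and 9 of the 10 genes had 1 or 2 exons, against 8.43% of 15661 protein-coding genes of the table. Their spans on hg38 ran from 1350 bases for IER3 (chromosome 6, 30743199 to 30744548, minus strand) to 7172 bases for EGR2 (chromosome 10, 62811996 to 62819167, minus strand), where the median protein-coding gene spans 32705 bases. IER2 lies on chromosome 19 from 13150411 to 13154911 and IER5 on chromosome 1 from 181088700 to 181092900, both on the plus strand. Exon GC content was above the median of tested genes (47.5%) in 9 of the 10, the exception being BTG1 at 39.7%. The GC content was 61.6% in IER2, 49.8% in IER5 and 66.8% in ARC. Another annotated gene overlapped 5 of the 10 spans, and the library kit is not described as strand-specific. The overlapping genes that the table lists had at most 3.92 normalized counts in any library, far below IER3 and BTG1. The table does not list the opposite-strand genes that overlap IER2, by 662 and 1123 bases. It also lacks IER3-AS1 and the gene that overlaps EGR2. Reads from these unlisted genes could not be assessed. In EGR3, which is itself low, the overlapping gene had 3.11 normalized counts in Ctrl replicate 2, as many as EGR3 in that library.

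The 3′ UTRs of immediate-early transcripts often carry AU-rich elements, the sites that ZFP36 binds. In the canonical transcripts the pentamer ATTTA was present in 8 of the 10 genes, against 67.8% of 19229 coding transcripts, and TATTTAT, the core that ZFP36 prefers, in 5 of the 10, against 31.7%. These shares are not adjusted for length, and a longer 3′ UTR has more room for a match. The median length was 1060 bases in the coding transcripts. Of the 5 genes, IER5, BTG1 and BTG2 had 3014, 3802 and 2164 bases, and IER3 and ZFP36 had 737 and 708. IER3 and IER5 had 4 matches each to TATTTAT, ZFP36 itself had 3, and BTG1 and BTG2 had 1 each. IER2, EGR1, EGR2, EGR3 and ARC had 0, and IER2 and ARC also lacked the pentamer. The 2 genes that changed with NE thus differed in this feature. A match from each of 4 genes is given as DNA of the sense strand, with the core in capitals.
IER5: ttcctttattTATTTATttatttaatt
IER3: tcctaattaaTATTTATatgtatttat
ZFP36: atgacgacttTATTTATtctaatatga
BTG1: atagatttctTATTTATctgaaggtat
In IER5 3 of the 4 matches overlap in 1 run of repeated ATTT, which the printed site shows in part. IER5 and ZFP36 were the only ones of the 10 genes with the longer form TTATTTATT, which 8.50% of the coding transcripts held.

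Ctrl replicate 3 stood apart from the other libraries. It had 7305 genes at 0 reads, against 3954 to 4833 in the other 5, at a similar depth of 16852751 to 17979206 recovered reads on genes per library. Between Ctrl replicate 3 and Ctrl replicate 1 the log2 difference of the 14955 genes with a GC content followed that content, with a Spearman correlation of -0.519, and the NE minus Ctrl difference did so with -0.644; both are across genes, which are not independent replicates. The results below are therefore given also without this library and with each library's trend on GC content removed. Of 5 epithelial markers KRT8 and KRT18 were expressed, and KRT19, EPCAM and CDH1 were under the minimum mean. The summed normalized count of the 5 was 27658 to 38810 in Ctrl and 11914 to 14054 in NE-treated cells, and the part of this difference in the results below was not tested. Of 3 mesenchymal markers the sum, nearly all VIM, was 62091 to 79845 in Ctrl and 47298 to 60781 in NE-treated cells. VIM had a log2 fold change of -0.38, while CDH2 was at 0.64 and ZEB1 at 0.61, each under the fold criterion. Of the leukocyte markers PTPRC and CD3E were not listed, and the summed normalized count of the other 2 was at most 4.84 in any library, while the 3 endothelial markers summed to 22.3 to 52.9.

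Of the 10 genes, 2 were significantly lower in NE-treated cells, IER2 and IER5, and 0 were higher. To be called, a gene had to have a Benjamini-Hochberg (BH) adjusted p under 0.05 from limma over all genes tested, together with a log2 fold change of 1 or more in either direction. Among the 15013 genes tested 6.55% were called lower and 7.47% higher, 983 and 1121 genes, which became 600 and 1653 with libraries scaled to equal totals. EGR1, IER3, BTG1 and ZFP36 were tested and did not pass, and EGR2, EGR3, ARC and BTG2 were not tested, because their mean was under 10 normalized counts. Normalized counts here are reads per gene divided by 1 size factor per library, and fold changes are on the log2(value + 1) scale. The median log2 fold change of the 6 tested genes was -0.18, beside 0.01 for all genes tested, and it was -0.33 without Ctrl replicate 3.

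**Figure D1:**
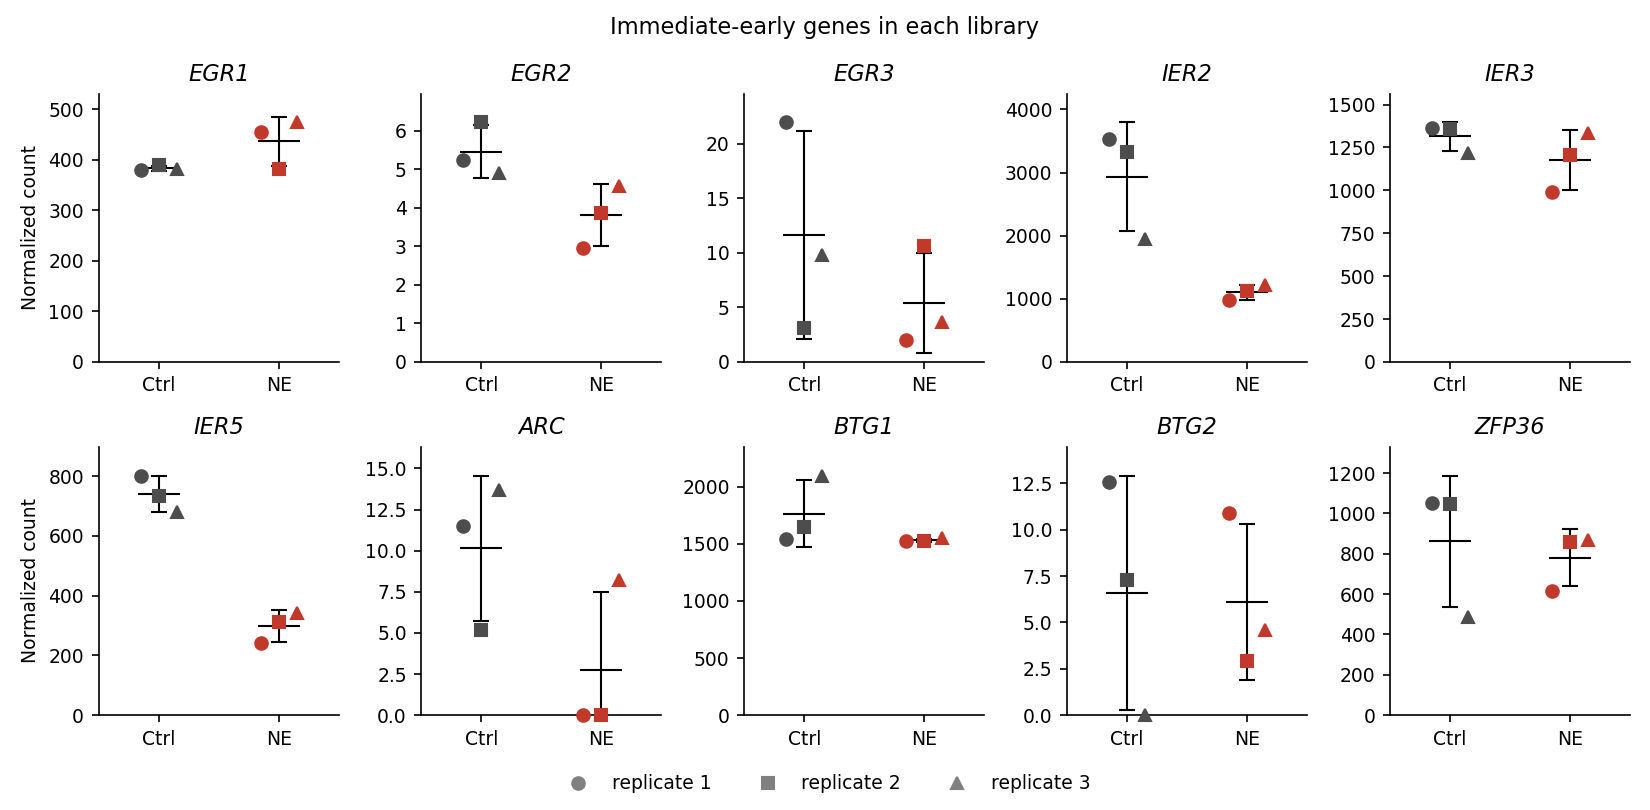
Normalized counts (vertical axis, each panel from 0 on its own scale) of the 10 genes in the 3 Ctrl and 3 NE libraries, with a marker shape for each replicate number and bars for the mean ± SD of a group. IER2 and IER5 separate the groups without overlap, EGR1, IER3, BTG1 and ZFP36 overlap, and EGR2, EGR3, ARC and BTG2 stay at or below 22.0 normalized counts.

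IER2 (ENSG00000160888), which encodes a nuclear protein induced by serum and growth factors, had the lowest log2 fold change of the 6 tested genes. Its normalized counts were 3536, 3320 and 1950 in Ctrl replicates 1, 2 and 3, against 979.3, 1122 and 1217 in the NE replicates. Every NE library was below every Ctrl library, and Ctrl replicate 3 was at 56.9% of the mean of the other 2 Ctrl libraries. The mean fell from 2936 ± 860.3 (SD, n = 3) to 1106 ± 119.7 (SD, n = 3), a level 62.3% below Ctrl. The log2 fold change was -1.37 (SE 0.21, limma BH-adjusted p = 0.000881), with a 95% confidence interval from -1.84 to -0.89. Without Ctrl replicate 3 it was -1.64 (limma BH-adjusted p = 5.59e-08). After removal of the GC trend it was -0.74 (limma BH-adjusted p = 0.0024), which is past the p threshold and no longer past the fold criterion.

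IER5 (ENSG00000162783) fell by a similar amount and with less spread in Ctrl. Its normalized counts were 802.2, 734.2 and 681.1 in Ctrl replicates 1, 2 and 3, against 240.1, 311.9 and 342.7 in the NE replicates. The lowest Ctrl library was above the highest NE library, and Ctrl replicate 3 was at 88.7% of the other 2. Ctrl averaged 739.1 ± 60.7 and NE 298.2 ± 52.6 (SD, n = 3 each), so that NE was 59.7% below Ctrl. The log2 fold change was -1.32 (SE 0.16, limma BH-adjusted p = 0.000282), with a 95% confidence interval from -1.67 to -0.97. It was -1.38 without Ctrl replicate 3 (limma BH-adjusted p = 2.98e-06) and -1.17 with the GC trend removed (limma BH-adjusted p = 0.000259), so that IER5 was called in both fits. Under the GC correction it was the only 1 of the 6 tested genes called lower, where 2.31% of all genes were called lower and 3.67% higher. Without Ctrl replicate 3 the 2 genes called lower were again IER2 and IER5, where 10% of all genes were called lower and 10.8% higher.

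For single genes the exact permutation test with 3 libraries against 3 cannot give a p under 0.1. This smallest value is reached only when the groups do not overlap, so it is the same observation as the lack of overlap. IER2, IER5 and EGR2, which was not tested by limma, reached it. Among the tested members, IER2 and IER5 were the only ones whose groups did not overlap on the scale of normalized counts. Both had NE below Ctrl, where 28.9% of all tested genes had every NE library below every Ctrl library and 29.7% had every NE library above.

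IER3 (ENSG00000137331), the third IER gene of the set, overlapped between the groups. Its normalized counts were 1366, 1358 and 1219 in Ctrl replicates 1, 2 and 3, against 988.1, 1204 and 1335 in the NE replicates, where NE replicate 1 was the lowest of all 6 libraries. The log2 fold change was -0.17 (SE 0.13, limma BH-adjusted p = 0.307), with a 95% confidence interval from -0.47 to 0.13. After removal of the GC trend it was 0.39 (limma BH-adjusted p = 0.0242), in the opposite direction and under the fold criterion.

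EGR1 (ENSG00000120738, chromosome 5 from 138465479 to 138469303) was the 1 of the 3 EGR genes of the set that reached the minimum mean. It measured 380.1, 388.9 and 381.2 normalized counts in Ctrl replicates 1, 2 and 3 and 454.5, 381.6 and 474.3 in the NE replicates. The Ctrl libraries were close together, and NE replicate 2 lay among them. Ctrl averaged 383.4 ± 4.76 and NE 436.8 ± 48.8 (SD, n = 3 each), with a log2 fold change of 0.18 (SE 0.13, limma BH-adjusted p = 0.27) and a 95% confidence interval from -0.11 to 0.47. The GC correction moved the log2 fold change to 0.63 (limma BH-adjusted p = 0.00574), past the p threshold and under the fold criterion. Scaling each library to the same total of reads gave 0.32 (limma BH-adjusted p = 0.0756), and this scaling moved the median of all genes to 0.14.

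BTG1 (ENSG00000133639, chromosome 12 from 92140278 to 92145846) measured 1541, 1652 and 2099 normalized counts in Ctrl replicates 1, 2 and 3 and 1526, 1524 and 1548 in the NE replicates. The 3 NE libraries were close together, and Ctrl replicate 3 was the highest, at 131.5% of the mean of the other 2 Ctrl libraries. The log2 fold change was -0.19 (SE 0.13, limma BH-adjusted p = 0.244), with a 95% confidence interval from -0.48 to 0.10. Without Ctrl replicate 3 it was -0.06 (limma BH-adjusted p = 0.554), and with the GC trend removed it was -0.75 (limma BH-adjusted p = 0.000217), under the fold criterion.

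ZFP36 (ENSG00000128016, chromosome 19 from 39406847 to 39409412) differed most, of the 6 tested genes, between Ctrl replicate 3 and the other Ctrl libraries. It measured 1053, 1046 and 485.1 normalized counts in Ctrl replicates 1, 2 and 3 and 616.6, 856.2 and 868.1 in the NE replicates. The first 2 Ctrl libraries were above all NE libraries and the third was below all of them, at 46.2% of the mean of the other 2. With all libraries the log2 fold change was -0.07 (SE 0.28, limma BH-adjusted p = 0.845), with a 95% confidence interval from -0.72 to 0.57. Without Ctrl replicate 3 it was -0.44 (limma BH-adjusted p = 0.0104), lower in NE-treated cells by less than the fold criterion, and with the GC trend removed it was 0.47 (limma BH-adjusted p = 0.116).

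**Figure D2:**
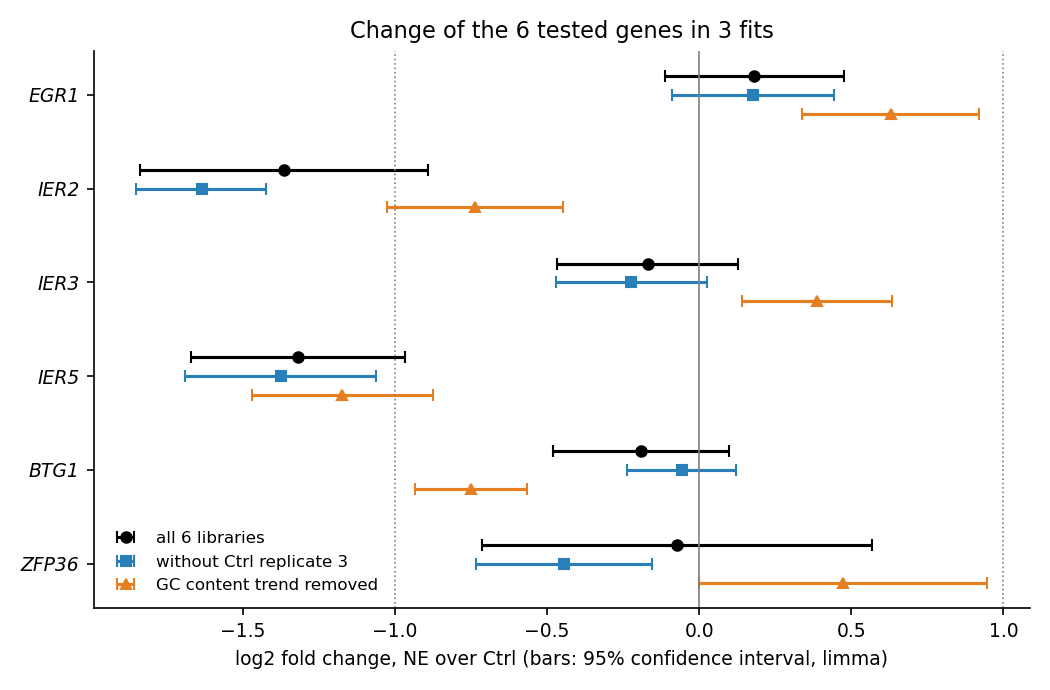
Log2 fold change of NE over Ctrl (horizontal axis) with its 95% confidence interval for the 6 tested genes, in the fit of all 6 libraries (black circles), without Ctrl replicate 3 (blue squares) and with the GC trend of each library removed (orange triangles); dotted lines mark the fold criterion. IER5 lies beyond -1 in all 3 fits, IER2 in 2 of the 3, and the signs of IER3 and ZFP36 differ between fits.

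The other genes of the set were at the edge of detection. EGR2 had 5, 6 and 5 recovered reads in the Ctrl libraries and 3, 4 and 5 in the NE libraries, so that both groups held libraries with 5 reads. Its normalized counts averaged 5.45 ± 0.687 and 3.80 ± 0.805 (SD, n = 3 each). They were apart, at 4.90 in Ctrl replicate 3 and 4.57 in NE replicate 3, only because the size factors differ. Of all tested genes 28.9% had every NE library below every Ctrl library. EGR3 had 21, 3 and 10 reads in Ctrl and 2, 11 and 4 in NE-treated cells, and the groups overlapped. ARC had 11, 5 and 14 reads in Ctrl and 0, 0 and 9 in NE-treated cells, where a count of 0 allows up to 3 reads. BTG2 had 12, 7 and 0 reads in Ctrl and 11, 3 and 5 in NE-treated cells, a total of 19 in each group. When no minimum mean was applied, the log2 fold changes were -0.43 for EGR2, -0.89 for EGR3, -2.32 for ARC and 0.40 for BTG2, with BH-adjusted p of 0.635, 0.472, 0.0763 and 0.792 from limma. None of these 4 differences had an adjusted p under 0.05, and the smallest difference detectable at this depth was not computed. BTG2 had a slightly lower mean in NE-treated cells (6.11 against 6.61 normalized counts) although its log2 value was positive, because the log scale weights the library at 0 reads.

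Levels of different genes were compared as FPKM, recomputed from the recovered reads and the merged exons of GENCODE v44. In Ctrl the order was IER3 at 54.0 ± 2.40 FPKM, IER2 at 52.7 ± 14.7, ZFP36 at 24.1 ± 8.80, BTG1 at 20.2 ± 3.79, IER5 at 9.76 ± 0.664 and EGR1 at 6.79 ± 0.119 (SD, n = 3 each). IER3 and IER2 did not differ beyond their spread, nor did ZFP36 and BTG1. In NE-treated cells IER3 was at 53.4 ± 10.1 FPKM, ZFP36 at 24.2 ± 5.25, IER2 at 22.0 ± 3.29, BTG1 at 19.3 ± 0.957, EGR1 at 8.51 ± 1.08 and IER5 at 4.36 ± 0.938 (SD, n = 3 each), and ZFP36, IER2 and BTG1 did not differ beyond their spread. IER5 was above EGR1 in each Ctrl library, at 9.20 to 10.5 FPKM against 6.66 to 6.90, and below it in each NE library, at 3.34 to 5.19 FPKM against 7.45 to 9.61. EGR2, EGR3, ARC and BTG2 were at most 0.260 FPKM in any library.

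**Figure D3:**
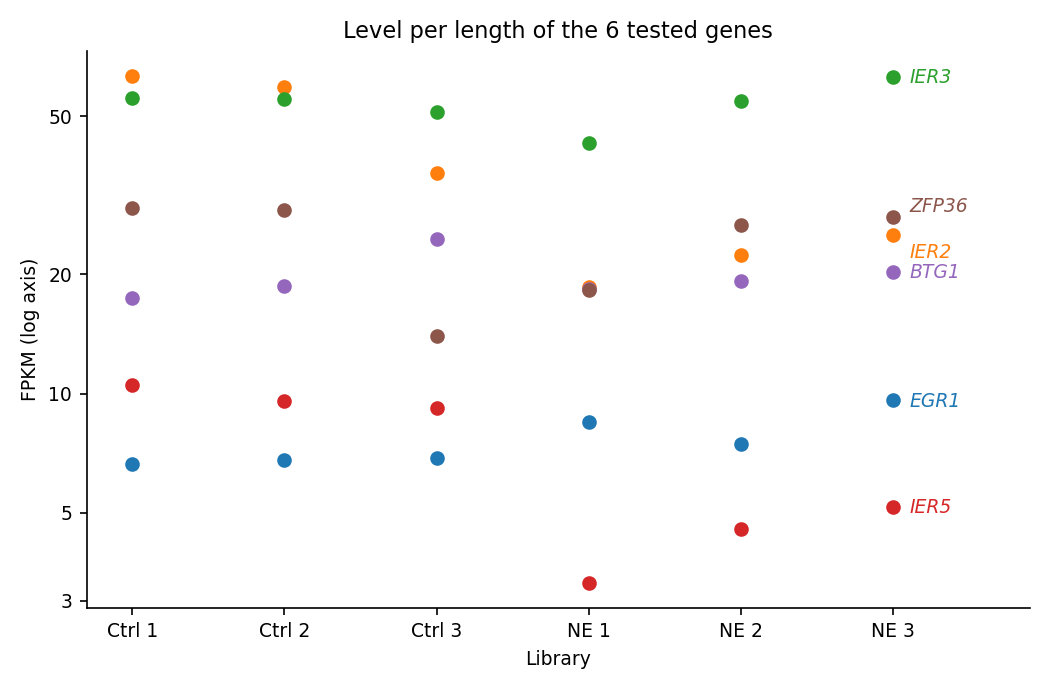
FPKM (vertical log axis) of the 6 tested genes in each library. The points of IER5 lie above those of EGR1 in the 3 Ctrl libraries and below them in the 3 NE libraries, and IER2 is near IER3 in Ctrl replicates 1 and 2 and between 18.6 and 25.1 FPKM in the NE libraries.

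The position of the genes against GC content is shown next, because genes rich in GC were lower in NE-treated cells across the table. Of tested genes with 60 to 62% GC the median log2 fold change was -0.65, and IER2 was at -1.37. Among genes with 48 to 50% GC it was -0.13 with a lower quartile of -0.43, and IER5 was at -1.32. EGR1, IER3 and ZFP36 lay above the upper quartile of genes of their GC content and BTG1 below the lower quartile. Whether the trend arises from the treatment or from the libraries cannot be told apart, and its part in the changes of the 6 genes was not tested.

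**Figure D4:**
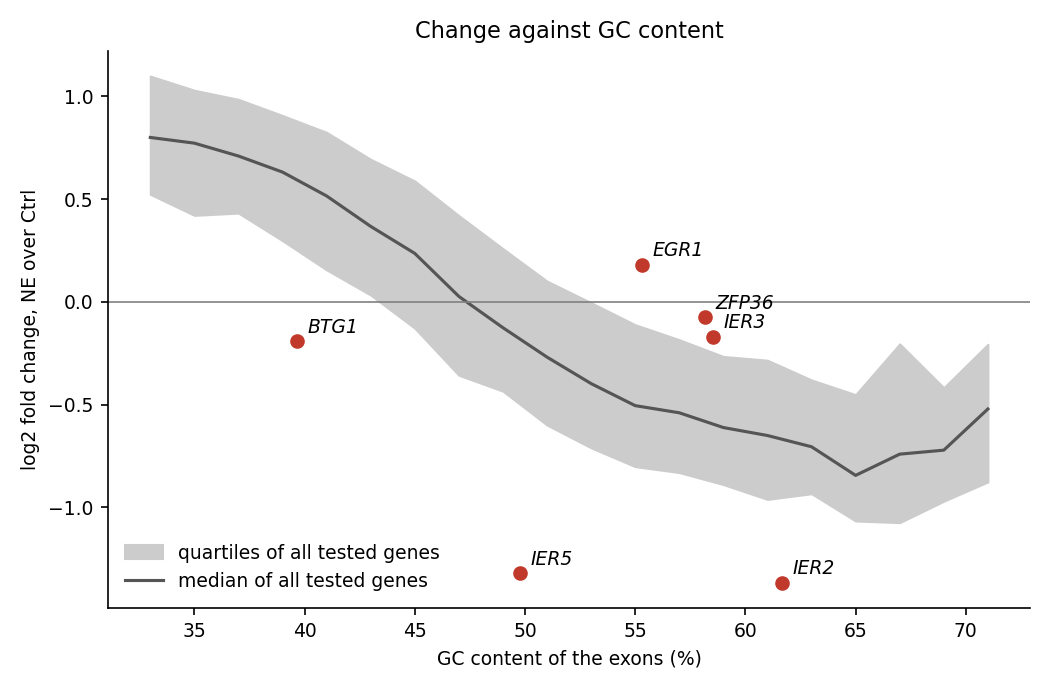
Log2 fold change of NE over Ctrl (vertical axis) against exon GC content in percent (horizontal axis). The line and band are the median and quartiles of all tested genes in bins of 2 percentage points, and the points are the 6 tested genes; IER5 and IER2 lie below the band.

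The genes whose values across the 6 libraries were most like those of IER2, the tested gene with the lowest log2 fold change, were C11orf68, HNRNPAB and DPF2, with Pearson correlations of log2 values between 0.9990 and 0.9998. These 6 libraries share 2 groups and the low Ctrl replicate 3, and the correlations are a description. In C11orf68 the Ctrl values were 1812, 1711 and 962.3 normalized counts and the NE values 454.5, 516.2 and 583.9, with a log2 fold change of -1.48, and it carried the same step from the first 2 Ctrl libraries to the third. HNRNPAB, an RNA-binding protein gene, had a log2 fold change of -1.15. DPF2 was at -0.47, under the fold criterion, so that a high correlation did not mean a change of the same size.

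Relatives and partners of the 10 genes were described from a list of 12 genes, of which 10 were tested, 1 was called higher and 0 lower, to be read against the 7.47% and 6.55% of all tested genes. TOB1, a BTG/TOB family member that also binds CCR4-NOT, rose from 509.9 ± 35.5 to 1041 ± 111.8 normalized counts (SD, n = 3 each), with a log2 fold change of 1.02 (limma BH-adjusted p = 0.000307). Without Ctrl replicate 1 it was at 0.97 and without NE replicate 1 at 0.94, under the fold criterion, and with the GC trend removed at 0.75, where IER5L was the gene of the list called higher, at 1.28. The lowest value of the list was that of PRMT1, an arginine methyltransferase that binds BTG1, at -0.89 (limma BH-adjusted p = 0.000664), and without Ctrl replicate 3 it was called lower at -1.02. IER5L, the paralog of IER5, was at 0.61 (limma BH-adjusted p = 0.0482), the opposite sign to IER5, and did not pass the fold criterion. The EGR corepressor NAB2, itself an EGR1 target, was at -0.07, and the corepressor NAB1 was at 0.66 (limma BH-adjusted p = 0.0068). The ZFP36 paralog ZFP36L1 was at -0.56 (limma BH-adjusted p = 0.0013) and ZFP36L2 at 0.04, and neither these paralogs nor NAB1 passed the fold criterion. EGR4 and BTG4 were under the minimum mean. BTG3, a paralog of BTG1, was at 15.9 FPKM in Ctrl and 16.2 FPKM in NE-treated cells, with a log2 fold change of -0.06 (limma BH-adjusted p = 0.808).

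A list of 15 genes held subunits of the CCR4-NOT and PAN2-PAN3 deadenylase complexes and their partners, and all were tested. Of these, 0 were called higher and 0 lower, against 7.47% and 6.55% of all tested genes. The median log2 fold change of the list was 0.32. Without the fold criterion 7 were higher and 1 lower at an adjusted p under 0.05, where 24.6% and 25.5% of all tested genes were. The highest was CNOT6L, a catalytic subunit of CCR4-NOT, at 0.95, and the lowest TNKS1BP1 at -0.98. The median of the list was 0.03 with the GC trend removed. CNOT6L was called higher without Ctrl replicate 3, at 1.08, and TNKS1BP1 lower, at -1.19.

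Of 20 genes of the ERK, SRF and CREB inputs, all tested, 1 was called lower and 0 higher, against 6.55% and 7.47% of all tested genes. RPS6KA4, which encodes the kinase MSK2 that phosphorylates CREB, fell from 2434 ± 462.3 to 889.2 ± 51.4 normalized counts (SD, n = 3 each), with a log2 fold change of -1.43 (limma BH-adjusted p = 0.000165), and was at -0.77 with the GC trend removed. The ERK1 gene MAPK3 was called lower too without Ctrl replicate 3, at -1.11. SRF was at -0.63 and CREB1 at 0.54 (limma BH-adjusted p = 0.0033 and 0.0095), both under the fold criterion. The highest value was that of RPS6KA3 at 0.78.

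Other immediate-early genes were called in both directions. Of 25 listed genes 24 were tested, with 4 called higher and 3 lower, against 7.47% and 6.55% of all tested genes. The median log2 fold change of the list was -0.20. This median was -0.07 with equal library totals and turned to 0.13 with the GC trend removed. The genes called higher were DUSP1, a MAP kinase phosphatase, at 2.88, GEM at 1.28, SGK1 at 1.14 and PLK2 at 1.03. Those called lower were GADD45B at -1.71, PLK3 at -1.48 and KLF2 at -1.37. DUSP1 went from 431.5 ± 93.2 to 3143 ± 57.4 normalized counts (SD, n = 3 each). With the GC trend removed DUSP1, GEM, ID1 (1.29) and RHOB (1.09) were called higher and GADD45B lower, while SGK1, PLK2, PLK3 and KLF2 were not. Without Ctrl replicate 3 there were 3 of each, PLK2 being at 0.90, and PLK2 was at 0.98 without NE replicate 3.

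**Figure D5:**
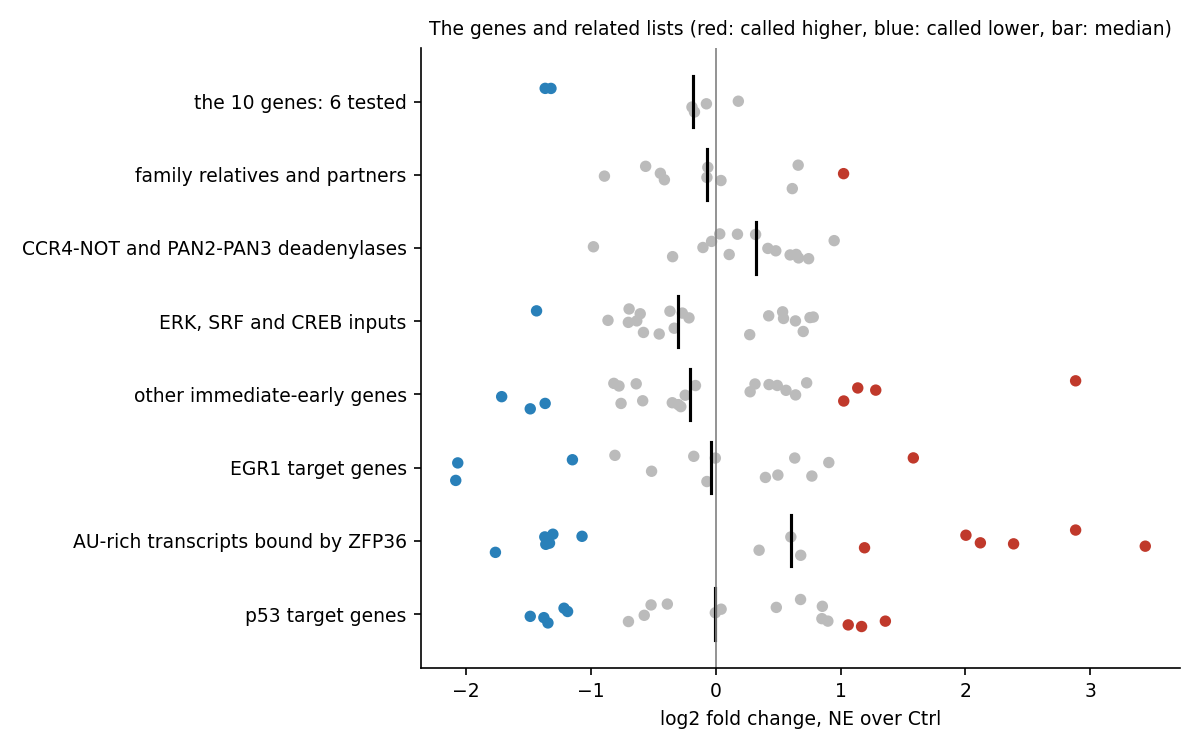
Log2 fold change of NE over Ctrl (horizontal axis) of the tested genes of each list, with genes called higher in red, called lower in blue and others in grey, and a bar at the median of the list. The 6 tested genes of the set hold 2 called lower, at -1.37 and -1.32, while the other immediate-early genes spread from -1.71 to 2.88.

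Known targets of the members were read in the same way, each from a list chosen with earlier results of these data known. Of 14 EGR1 target genes, all tested, 1 was called higher and 3 lower, against 7.47% and 6.55% of all tested genes. The EGR1 list was shortened after its values were seen, so these counts depend on that choice. The EGR1 transcript itself did not pass the test. MMP14, a membrane-bound matrix metalloproteinase gene, fell from 7348 ± 1797 to 1700.3 ± 136.8 normalized counts (SD, n = 3 each), a log2 fold change of -2.08 (limma BH-adjusted p = 7.63e-05). The growth factor gene PDGFB was at -2.07 and the adhesion molecule gene ICAM1 at -1.15, and the growth factor gene FGF2 was called higher at 1.58. With the GC trend removed MMP14 (-1.52) and PDGFB (-1.46) were still called lower, and FGF2 and ICAM1 were no longer called.

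Of 18 AU-rich transcripts known to be bound by ZFP36, 15 were tested. Of these, 6 were called higher and 6 lower, against 7.47% and 6.55% of all tested genes, in a list chosen with earlier results known. The median log2 fold change of the list was 0.60. This median was 0.35 with no minimum mean or with a minimum of 50, and 0.01 with the GC trend removed. The chemokine genes CXCL8 at 3.44, CXCL3 at 2.39 and CXCL1 at 2.00 rose, as did DUSP1 at 2.88, the apoptosis inhibitor gene BIRC3 at 2.12 and VEGFA at 1.19. PLAU at -1.76, its receptor PLAUR at -1.37, MYC at -1.36, LIF at -1.33, CCND1 at -1.30 and PIM1 at -1.07 fell. CXCL3 rested on few reads, with means of 4.75 and 24.8 normalized counts, and its BH-adjusted p from limma was 0.0523 without NE replicate 3. PIM1 was at -0.98 without Ctrl replicate 1, under the fold criterion. With the GC trend removed the 6 higher genes were still called, and PLAU, PLAUR and MYC were the 3 still called lower.

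BTG2 and IER5 are known p53 targets, and NCI-H1299 lacks p53, so a list of 20 p53 target genes was read beside them. Of 19 tested, 3 were called higher and 5 lower, against 7.47% and 6.55% of all tested genes, with a median log2 fold change of 0.00. TIGAR at 1.36, RRM2B at 1.17 and TP53INP1 at 1.06 were called higher, and PLK3 at -1.48, GADD45A at -1.38, BBC3 at -1.34, TP53I3 at -1.21 and AEN at -1.19 lower. TIGAR lost its call when any library other than Ctrl replicate 3 was left out, with limma BH-adjusted p of 0.0589 to 0.0749, and TP53INP1 was at 0.98 without Ctrl replicate 2. After the GC correction 0 of the 19 were called in either direction, and the median was 0.20. CDKN1A, the CDK inhibitor gene p21, was at -0.52 and did not pass the fold criterion.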

How the data were processed

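Total RNA of NCI-H1299 cells was made into libraries with the NEBNext Ultra kit. Per the submitters' processing notes, HISAT2 2.0.5, featureCounts 1.5.0-p3 and hg38 were used by the authors; the annotation release is not given in the sources used here. FPKM is named in their methods. The deposited columns instead hold a signal, reads per gene scaled by a size factor for each library; dividing a column by its smallest step gave whole reads (within 0.01) for 100% of values. The 6 columns were matched to samples by group letter and replicate number.

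Limma 3.58.1 (R 4.3.3) was run on log2(value + 1), with eBayes and trend, over the 15013 genes whose mean reached 10 normalized counts. The genes and lists were chosen with earlier results of these data known. The EGR1 target list was shortened after its values were seen, and 2 of its genes are not reported here. Named genes were the 10 genes, called list genes, the highest and lowest of a list, and the 3 genes most like the member that changed most. IER5L, NAB1, NAB2, EGR4, BTG3, BTG4, ZFP36L1 and ZFP36L2 were named after their values were seen. So were the markers, SRF, CREB1, MAPK3, ID1, RHOB and CDKN1A. In a simulated table of 14881 genes, 200 of them shifted by 1.5 (log2), limma called 99.5% of the 200 and 3 of the rest. The simulated counts held no GC trend and no library like Ctrl replicate 3, and no gene of low level was shifted. They therefore give no error rate for the real libraries. For the GC correction, each library's log2 values were taken as residuals from a natural spline (5 degrees of freedom) on exon GC content. Alternatives were edgeR 4.0.16 and DESeq2 1.42.0 on recovered reads, other pseudocounts, filters and scalings, a replicate block and each library left out. Symbols, exon lengths and GC content came from GENCODE v44, for 25813 of 26025 genes. The limit given for 0 reads covers counting error only, since no molecular identifiers are described.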

Additional observations from a re-analysis of the deposited data

How the results depend on the processing

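IER2 and IER5 stayed lower with NE in every alternative run, from -1.64 to -0.74 for IER2 and from -1.43 to -1.17 for IER5, and IER5 was called in all of them. The GC correction left 1 of the 10 genes called lower, alone and without Ctrl replicate 3, since IER2 was at -0.738 and -0.885; the second fit was chosen after seeing the data. Among all genes the GC correction gave 549 higher and 346 lower calls, and 654 and 525 without Ctrl replicate 3. Without the fold criterion 3693 were higher and 3828 lower, and with equal library totals 1653 and 600. EdgeR on the recovered reads called 1057 genes higher and 1096 lower, DESeq2 1099 and 1049, and each called IER2 and IER5 lower. Fits without 1 library gave 777 to 1507 lower and 815 to 1628 higher genes, the most without Ctrl replicate 3, and 2 members lower in each.

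IER3 reversed with the GC correction (0.388, and 0.437 without Ctrl replicate 3). ZFP36 reversed with the GC correction (0.473, and 0.202 without Ctrl replicate 3) and with equal library totals (0.0625), and ran from -0.44 to 0.11 when 1 library was left out. The cause was not tested. Blocking on the replicate number gave 1049 higher and 924 lower genes, and IER2 and IER5 were still called (limma BH-adjusted p = 0.00638 and 0.00421). The deviations of libraries with the same number correlated at -0.163, 0.0799 and -0.151, and the numbers were not taken as pairs. TIGAR, CXCL3, TOB1, PLK2, PIM1 and TP53INP1 each lost their call in at least 1 fit without a library.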
